A study of Mus musculus with 6 samples.

Results

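The genes examined were 10 that encode neuropeptide precursors: Nts, Cck, Sst, Penk, Pdyn, Tac1, Npy, Gal, Cartpt and Calca. Every probe set whose platform annotation named exactly 1 of these genes was taken, which gave 10 probe sets for 9 of the 18193 genes on the array, among 45037 probe sets other than controls. Tac1 had 2 probe sets, the other 8 genes had 1 each, and Calca, which encodes calcitonin and calcitonin gene-related peptide, had none under this symbol and was not analysed here. The genes were chosen by their function and in part by the measured signals of Nts, which was lower in the Ngn2-GFP positive cells of these same arrays. The comparison between the groups was therefore used in the choice, and the values of these genes are given as a description. They were part of the fit over all genes, but its p-values for them are not used.

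Messenger RNA was measured on arrays in fluorescence-sorted cells of the ventral mesencephalon (ventral midbrain) of mouse embryos at embryonic day 12.5, while dopaminergic neurons are being born there. Ngn2-GFP positive cells came from CD1/129 mice whose green fluorescent protein reports Neurog2 (Ngn2), a proneural transcription factor, and were labelled as midbrain dopaminergic progenitors. Lmx1a-GFP negative cells came from C57BL/6 mice whose reporter marks cells with Lmx1a, a transcription factor of dopaminergic progenitors, and were labelled as a non-dopaminergic progenitor population. There were 3 arrays per group, called biological replicates in the series' design text, and the number of arrays limits the precision. The number of embryos behind an array is not given in the sources used here. Strain, reporter line and sort gate all coincided with the group, so a difference between groups cannot be told apart from a difference between these. In sorted cells measured in bulk, fewer cells of a type and less RNA per cell cannot be told apart.

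Neuropeptides are made as longer precursor proteins that are cut at basic residues, often amidated at their ends, and packed into dense core vesicles, from which they are released to act on G protein-coupled receptors. Cck and, in rat, Nts are known from subsets of adult midbrain dopaminergic neurons, and Sst, Npy, Penk and Tac1 from GABAergic neurons of several brain regions. Many precursor genes respond to cAMP and calcium through a cAMP response element close to the transcription start, and the promoter of Sst is the classic example.

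Promoter sequences are shown for the 3 genes whose signals lay wholly lower in positive cells, Nts, Sst and Npy, and for Cartpt. The signals of Cartpt overlapped between groups, and its promoter, like that of Sst, holds a complete element. Whether the element bears on the signals was not tested. Each is the 250 bases before the annotated start, 5′ to 3′ on the gene's strand, from RefSeq on GRCm38.p6. They lie at chr10:102490419-102490668 (Nts, minus strand), chr16:23890845-23891094 (Sst, minus strand), chr6:49822460-49822709 (Npy, plus strand) and chr13:99900684-99900933 (Cartpt, minus strand). Capitals mark matches on either strand to the cAMP response element TGACGTCA, to its core TGACG, which is also part of the complete element, and to the AP-1 site TGANTCA.
Nts: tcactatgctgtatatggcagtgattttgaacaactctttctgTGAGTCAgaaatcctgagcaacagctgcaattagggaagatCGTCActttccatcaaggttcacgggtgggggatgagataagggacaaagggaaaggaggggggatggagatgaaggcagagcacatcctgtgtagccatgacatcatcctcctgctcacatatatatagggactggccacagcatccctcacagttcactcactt
Sst: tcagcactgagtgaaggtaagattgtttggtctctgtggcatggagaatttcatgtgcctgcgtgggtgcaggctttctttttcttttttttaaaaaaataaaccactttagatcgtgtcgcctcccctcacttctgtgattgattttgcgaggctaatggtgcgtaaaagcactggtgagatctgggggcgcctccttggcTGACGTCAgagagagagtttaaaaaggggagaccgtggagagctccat
Npy: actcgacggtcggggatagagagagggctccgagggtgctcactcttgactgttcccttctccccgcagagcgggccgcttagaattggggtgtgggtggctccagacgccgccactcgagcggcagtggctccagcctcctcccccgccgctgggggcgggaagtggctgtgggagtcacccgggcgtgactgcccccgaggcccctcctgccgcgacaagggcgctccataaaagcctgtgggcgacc
Cartpt: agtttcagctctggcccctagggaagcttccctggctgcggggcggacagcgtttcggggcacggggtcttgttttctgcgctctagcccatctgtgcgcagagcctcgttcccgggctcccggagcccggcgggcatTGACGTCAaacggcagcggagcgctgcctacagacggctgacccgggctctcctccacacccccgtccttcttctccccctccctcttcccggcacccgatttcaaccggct

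In these windows Sst held TGACGTCA with its first base 48 bases before the start and Cartpt held it 112 bases before. Of all 32851 mouse promoter windows of the same length, 1.55% held this motif. Nts held the core TGACG 166 bases before the start and an AP-1 match 207 bases before. The core was in 17.8% and the AP-1 motif in 6.75% of all windows. Npy held none of the 3 motifs. Promoters were found for 9 of the 10 genes, and of the others Cck, Tac1 and Calca held the core alone and Pdyn and Gal held none. A match describes the sequence and is not a measured binding site.

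Signals were array intensities on a linear scale, for which the submitters' processing notes name MAS5. A probe set counts as detected on an array where its signal exceeded the 40th percentile of that array, which lay between 10.2 and 15.8. By this level 4 of the 9 genes, Cck, Sst, Penk and Cartpt, were detected on all 3 positive arrays, and 6, Nts, Sst, Penk, Tac1, Npy and Cartpt, on all 3 negative arrays. None of the 9 was below the level on every array of a group. The choice of level set much of this picture. At the 60th percentile, 2 genes (Sst and Cartpt) were detected on all positive and 3 (Nts, Sst and Cartpt) on all negative arrays, and at the 80th percentile there was 1 gene in each group, Cartpt in positive and Sst in negative cells. Signals of different probe sets are not on a common scale, and no level of one precursor gene is set against that of another.

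**Figure D1:**
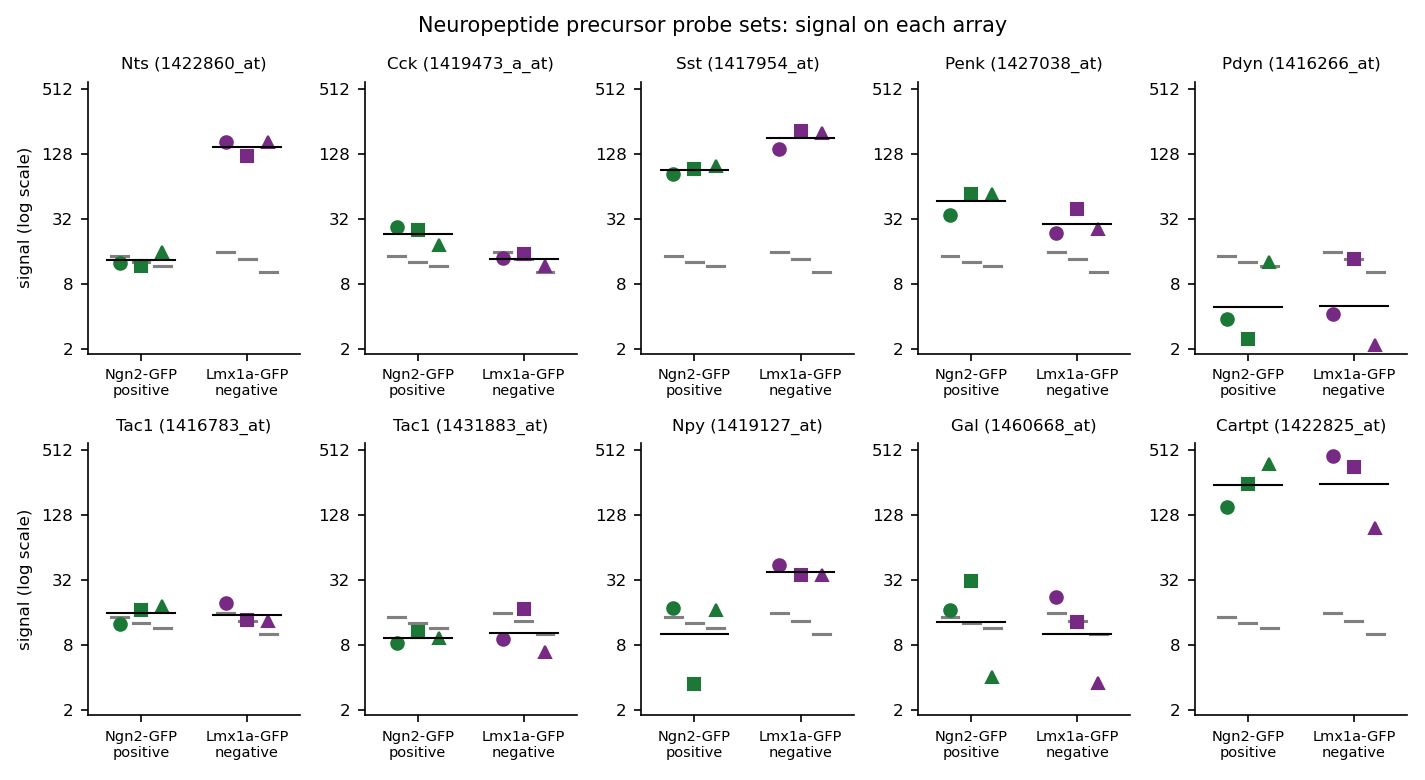
Signal of each neuropeptide precursor probe set on each array (log scale), with Ngn2-GFP positive arrays in green and Lmx1a-GFP negative arrays in purple. Circles, squares and triangles are replicates 1, 2 and 3, black lines are geometric means, and grey ticks are the 40th percentile of each array. Nts sits at the grey ticks in positive cells and at 121 to 165 in negative cells, while Cartpt is spread widely within both groups.

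Positive replicates 1 and 2 stood apart from the other 4 arrays in the 18 spike-in control probe sets. Their geometric mean signal was 2293 and 2352 there, while positive replicate 3 had 5018 and the negative arrays had 4254 to 6560. Results are therefore also given for the 4 arrays with the higher controls, which set positive replicate 3 alone against the 3 negative arrays. This split, called the spike-in batch below, was made at the widest gap in the control signals. The sample labels used here name no batch. Differences are positive minus negative cells in log2 signal, each with its standard error (SE) from a limma fit over 12044 tested genes and n = 3 per group. Whole-table calls use the fit's Benjamini-Hochberg adjusted p under 0.05, which 1.06% of tested genes passed.

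The sort was checked on genes of the dopaminergic lineage. Lmx1a had signals of 146, 170 and 78.7 on positive arrays, against 3.74, 9.75 and 1.81 on negative arrays. Th, the rate-limiting enzyme of dopamine synthesis, had 188, 214 and 118 on positive arrays, against 12.2, 1.44 and 10.5 on negative arrays. Both passed the limma test (adjusted p = 0.00167 and 0.00414), in the direction that the gate set for Lmx1a. Neurog2 had 706, 585 and 500 on positive arrays and 338, 388 and 334 on negative arrays, which did not pass (adjusted p = 0.155). Of 11 listed dopaminergic markers, 10 were tested. Of these, 5 were higher in positive cells, as were 0.423% of all tested genes, while none was lower. Among the 5, Lmx1a and Slc6a3 exceeded the detection level on 3 positive and 0 negative arrays. They entered the test through positive cells alone, which largely set their direction. Th exceeded the level on 3 positive arrays and 1 negative array, so it entered mainly through positive cells.

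Among the 8 precursor genes that passed the filter on dim probe sets, the 3 signals of one group lay wholly apart from the 3 of the other for 4 genes, lower in positive cells for Nts, Sst and Npy and higher for Cck. Over all tested genes 15.5% had groups that did not overlap, 7.25% with positive cells lower and 8.21% with positive cells higher. Since the comparison was used in choosing the list, nothing is read from these counts. The median difference of the 8 genes was 0.01, against 0.03 over all tested genes. Each of the 8 exceeded the detection level on at least 1 array of either group, although Nts, Npy and Tac1 exceeded it on all 3 arrays in negative cells only, and Cck on all 3 in positive cells only.

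Nts encodes the precursor of neurotensin and neuromedin N, peptides that act on the receptors Ntsr1 and Ntsr2. Its signal was 12.4, 11.6 and 15.7 on positive arrays, against 165, 121 and 164 on negative arrays. In positive cells it thus lay at percentiles 36.9 to 46.1 of the array, above the detection level on 1 of 3 arrays, whereas in negative cells it lay at percentiles 79.2 to 82.6. The difference was -3.50 (SE 0.35), 11.3-fold lower in positive cells by geometric means. This value was given by the rule of choice, and 2 of the 3 positive signals were under the detection level, so its size rests partly on values near that level. With 32 added to each signal before the log the difference was -2.0. It was -3.24 on the 4 arrays with the higher spike-in controls and between -3.65 and -3.42 with any 1 array left out.

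Sst encodes somatostatin, an inhibitory peptide. It was detected in both populations, at 82.5, 92.2 and 98.4 on positive arrays, against 142, 208 and 198 on negative arrays. The highest positive signal was below the lowest negative one, and the difference was -0.99 (SE 0.25), 1.99-fold lower in positive cells. The difference was between -1.16 and -0.89 with any 1 array left out, and -0.87 on the arrays with the higher spike-in controls.

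Npy encodes neuropeptide Y. It had signals of 17.7, 3.52 and 17.02 on positive arrays, against 44.5, 35.9 and 35.9 on negative arrays. Negative signals lay close together near the 60th percentile of their arrays, while positive replicate 2 was far below the other positive arrays and under the detection level. Positive replicates 1 and 3, at percentiles 43.7 and 47.6, were near that level. The difference was -1.92 (SE 0.65), and positive replicate 2 decided much of its size: without that array it was -1.15. On the arrays with the higher spike-in controls it was -1.18, and with 32 added to each signal -0.67.

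Cck encodes cholecystokinin, a peptide that many adult dopaminergic neurons of the midbrain also make. Its signal was 26.8, 25.4 and 18.4 on positive arrays, against 13.9, 15.2 and 11.7 on negative arrays. All 3 positive signals were above the detection level and above all 3 negative ones, of which 2 were detected. The difference was 0.78 (SE 0.52), at signals that did not exceed percentile 52.4 on any array. The probe set recognises more than 1 transcript of the gene by its name, and no other probe set of Cck was listed. On the arrays with the higher spike-in controls the difference was 0.45, and with 32 added it was 0.28.

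Penk, Pdyn and Tac1 are the opioid and tachykinin precursors of the list. Penk, the precursor of the enkephalins, had signals of 34.5, 54.4 and 54.7 on positive arrays, against 23.4, 39.7 and 25.5 on negative arrays. It was detected on all 6 arrays, and the lowest positive signal fell inside the negative range. Its difference was 0.70 (SE 0.40), with values between 0.55 and 0.94 when any 1 array was left out and 0.37 with 32 added. Pdyn, the precursor of the dynorphins, had 3.78, 2.47 and 12.7 on positive arrays, against 4.23, 13.7 and 2.18 on negative arrays. It exceeded the detection level on 1 array of each group and was not tested. Tac1, the precursor of substance P and neurokinin A, had 12.6, 16.9 and 18.5 on positive arrays, against 19.5, 13.7 and 13.5 on negative arrays in its brighter probe set. The groups overlapped, with a difference of 0.05 (SE 0.56). The dimmer probe set of Tac1 had 8.46, 10.5 and 9.23 on positive arrays and 9.17, 17.4 and 6.94 on negative arrays. It exceeded the detection level on 1 negative array alone and was not tested.

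Gal encodes galanin. Its signals were 17.1, 31.5 and 4.10 on positive arrays, against 22.6, 13.0 and 3.53 on negative arrays. Each group held both a clear signal and a value far below the detection level, so the spread within groups was wider than the difference of 0.36 (SE 0.92). The direction turned with the arrays used: the difference was -0.27 without positive replicate 2, -0.40 without negative replicate 3, 1.196 without positive replicate 3 and -1.31 on the arrays with the higher spike-in controls.

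Cartpt encodes the precursor of the CART peptides. It was detected on all 6 arrays, at 152, 252 and 386 on positive arrays, against 451, 360 and 97.5 on negative arrays. These signals lay at percentiles 80.7 to 91.3 in positive and 75.5 to 92.8 in negative cells. Within each group the values differed by over 2-fold, and the difference between groups was -0.03 (SE 0.49). It was -0.71 without negative replicate 3, -0.36 without positive replicate 3, -0.05 without positive replicate 2, 0.23 without negative replicate 2, 0.31 without positive replicate 1, 0.39 without negative replicate 1 and 0.62 on the arrays with the higher spike-in controls, so no direction can be given.

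**Figure D2:**
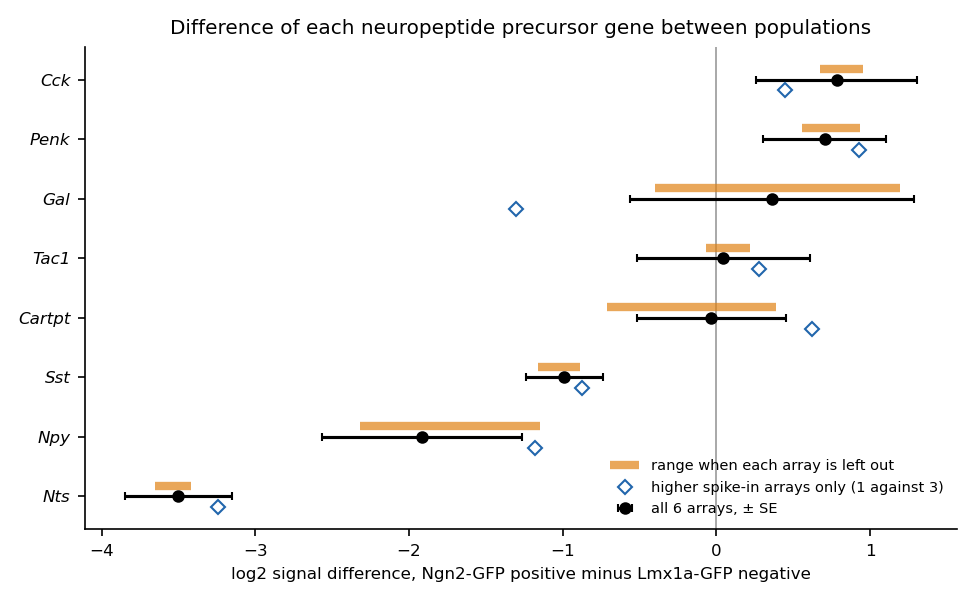
Log2 signal difference, Ngn2-GFP positive minus Lmx1a-GFP negative, of the 8 neuropeptide precursor genes that passed the filter. Points with bars are the fit on all 6 arrays with its SE, orange bars the range when each array is left out in turn, and open diamonds positive replicate 3 against the 3 negative arrays. Nts, Npy and Sst stay below 0 and Cck and Penk above 0 throughout, while Gal, Cartpt and Tac1 lie on both sides.

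The genes with the pattern nearest to that of Nts were found by the root-mean-square difference of log2 signal, after subtracting each gene's own mean, over the 6 arrays. They were Six3 (0.24), Eomes (0.24), Arhgap6 (0.31), Slc6a4 (0.32) and Tal2 (0.32), against a median of 1.81 over all tested genes. Six3, a homeobox transcription factor, had 15.7, 15.4 and 26.5 on positive arrays and 209, 191 and 168 on negative arrays. Eomes, a T-box transcription factor, had 2.65, 3.62 and 3.79 on positive arrays and 32.02, 33.8 and 34.0 on negative arrays. Arhgap6, Slc6a4, the serotonin transporter, and Tal2, a transcription factor of midbrain GABAergic neurons, also had all 3 positive signals below all 3 negative ones. Eomes and Arhgap6 were under the detection level on all 3 positive arrays, and Slc6a4 exceeded it on 1 positive array. Their closeness to Nts rests in part on values under that level. For Sst the nearest genes were Kiz (0.09), Lats2 (0.12) and Mcur1 (0.12), and for Npy they were Erf (0.13), Slc5a10 (0.26) and Tfap2b (0.34). For Cck they were Plcb4, Klhl42 and Soga3, each at 0.09. With 6 arrays in 2 groups this measure mostly follows the group difference.

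**Figure D3:**
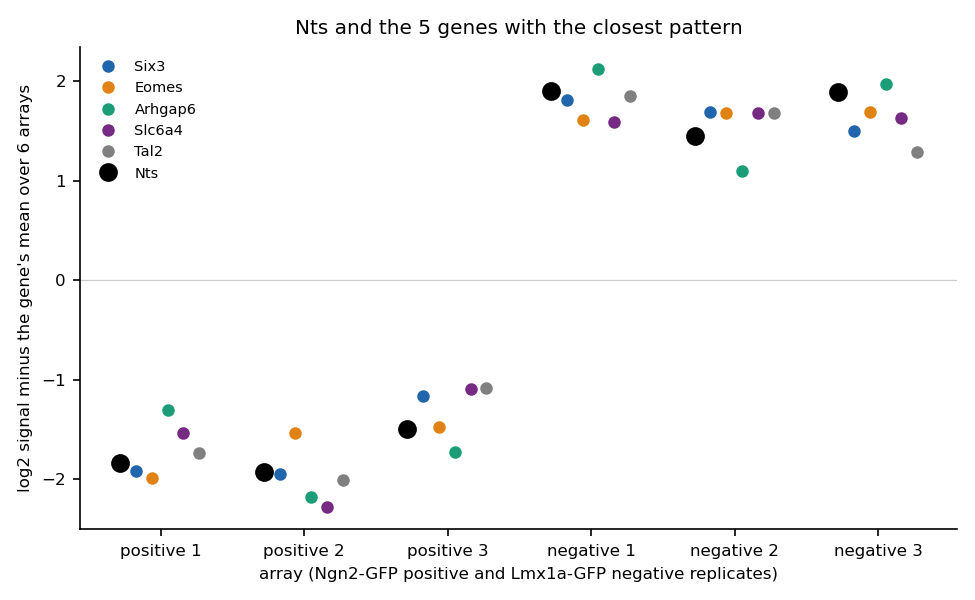
Log2 signal of Nts (black) and of the 5 genes nearest to it, each minus its own mean over the 6 arrays, on the 3 Ngn2-GFP positive and then the 3 Lmx1a-GFP negative arrays. All 6 genes lie below 0 on every positive array and above 0 on every negative array.

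Markers of midbrain GABAergic cells were mostly lower in positive cells, as Nts, Sst and Npy were. Summed signals of several other marker lists were lower too, with limits given for each. Of 9 listed markers of midbrain GABAergic cells, 8 were tested and 6 were lower in positive cells, as were 0.639% of all tested genes, and their signals summed to 2457 to 2682 in positive cells and 5930 to 6191 in negative cells. Of 6 serotonergic markers, 5 were tested and 3 were lower and 1 higher, with sums of 505 to 643 in positive and 1748 to 2046 in negative cells. That gap rests on Nkx2-2 and Gata3, the second of which is also a GABAergic marker here. Without them the sums, mostly Slc18a2, were 343 to 545 in positive and 296 to 373 in negative cells. Tph2 and Slc6a4 were each lower on all 3 positive arrays, but both entered the test only or mainly through negative cells. Tph2 did not pass (adjusted p = 0.059 by limma). The 6 oculomotor markers (2 tested, 1 lower) summed to 33.6 to 62.9 in positive and 149 to 209 in negative cells. Without Isl1 the sums were 12.2 to 15.9 in positive and 20.6 to 49.3 in negative cells. Of the 4 genes left, Phox2a and Slc5a7 were detected on negative arrays only, and Chat and Slc18a3 on no array. The remaining gap thus rests on signals near or under the detection level. All 4 tested of 7 erythroid markers were lower, with sums of 301 to 613 in positive and 7375 to 14436 in negative cells. A sum follows its brightest probe sets, and most of the erythroid sum was Hbb-y. That gene had 331, 273 and 574 on positive arrays, against 9974, 12429 and 6565 on negative arrays. All 4 tested of 7 microglia and macrophage markers were lower too, with sums of 19.5 to 35.3 in positive and 357 to 736 in negative cells. In positive cells 4 of 6 erythroid and 6 of 7 microglia markers on the array were below the detection level on all 3 arrays. Csf1r, Aif1, Tyrobp, Hba-x, Hbb-bh1, the serotonergic Tph2 and the oculomotor Phox2a exceeded that level on 3 negative and 0 positive arrays. C1qb, Alas2 and the serotonergic Slc6a4 exceeded it on 3 negative arrays and 1 positive array. These genes entered the test only or mainly through negative cells. The counts of lower erythroid and microglia markers therefore show no lean, nor do Tph2, Slc6a4 and Phox2a. The 8 sensory ganglion markers (6 on the array, 4 tested, 1 higher and 1 lower) summed to 134 to 135 in positive and 172 to 239 in negative cells. Isl1, which is in the oculomotor list too, set this direction: without it the sums were 87.8 to 112 in positive and 43.5 to 80.9 in negative cells. Of the 5 glutamatergic and red nucleus markers 4 were tested, with 1 higher and 1 lower and overlapping sums, and none of the 3 tested vessel and mesenchyme markers passed. The part of these cell types in the levels of the precursor genes was not tested.

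The receptors of these peptides were mostly dim. Of 29 listed receptor genes 28 had a probe set, 7 of these were tested and 15 were below the detection level on all 6 arrays. By limma none of the 7 passed. An unadjusted p under 0.05 was reached by 2 of them, both higher in positive cells, against 10.8% of all tested genes in either direction and 5.68% higher. Of the 7, 6 had a positive difference, against 52.3% of all tested genes, with a median of 1.22. For 5 of them 1 negative array and more positive arrays were above the detection level, so they passed the filter mainly through positive cells and neither the count nor the median shows a lean. The median was 0.35 with 32 added to each signal and 0.25 with no filter. Sstr2, a somatostatin receptor, had 161, 208 and 198 on positive arrays, against 89.7, 82.3 and 117 on negative arrays. The groups did not overlap, and the difference of 0.98 (SE 0.25) ran opposite to that of Sst itself but did not pass (adjusted p = 0.112). Npy1r, a receptor of neuropeptide Y, had 37.3, 44.4 and 33.6 on positive arrays, against 14.4, 3.58 and 13.3 on negative arrays. It exceeded the detection level on 1 negative array, and the difference was 2.11 (SE 0.63, adjusted p = 0.204). Sort1, a sorting receptor that also binds neurotensin, had 559, 595 and 358 on positive arrays and 714, 495 and 384 on negative arrays, which overlapped (-0.06, SE 0.27), and the mean of its probe sets differed by 0.22.

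The genes that process precursors were measured in part. Of 14 listed processing genes 13 had a probe set, and Pcsk2 was not among these 13. Pcsk1, named after its values were seen, was below the detection level on all 3 positive arrays. It exceeded that level on 1 negative array and was not tested. The other 12 were tested, and each exceeded the level on at least 1 array of both groups. None passed, with 1 at an unadjusted p under 0.05 and a median of -0.23. Cpe, the carboxypeptidase that trims basic residues from cut precursors, had 2537, 2216 and 3581 on positive arrays, against 2918, 4326 and 3417 on negative arrays (-0.37, SE 0.25, adjusted p = 0.62). Scg5, the chaperone of the convertase Pcsk2, had 652, 840 and 685 on positive arrays, against 552, 501 and 621 on negative arrays (0.38, SE 0.20, adjusted p = 0.514), and Ctsl, a cathepsin, differed by 0.01 (SE 0.28). Pam, which amidates peptides and was singled out after its values were seen, had 335, 443 and 280 on positive arrays and 202, 199 and 241 on negative arrays. Its groups did not overlap, and its difference of 0.70 (SE 0.23) did not pass (adjusted p = 0.254).

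Of 15 dense core vesicle and granin genes 14 were tested and none passed, with 1 at an unadjusted p under 0.05 and a median of -0.02. Chgb, a granin, had 1974, 2064 and 2841 on positive arrays, against 1699, 2463 and 2376 on negative arrays (0.07, SE 0.24). Scg3, another granin, differed by 0.09 (SE 0.20) and Dnajc5, a vesicle chaperone, by -0.23 (SE 0.21) in the probe set used, but by 0.17 (SE 0.17) in the mean of its probe sets. Rab3a, a vesicle GTPase and chosen after its values were seen, had 2 probe sets that disagreed. The probe set with the higher mean log2 signal, which stood for the gene, had 148, 164 and 181 on positive arrays, against 128, 103 and 127 on negative arrays. The other, whose linear mean was the higher and which is of a class (_x_at) that can share probes with other transcripts, had 73.4, 46.4 and 15.7 on positive arrays, against 406, 468 and 424 on negative arrays. Fitted on its own among all tested probe sets, it was lower in positive cells, with a difference of -3.52 (SE 0.43, adjusted p = 0.00118 by limma).

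Of 11 peptidases that degrade neuropeptides 5 were tested and none passed, with 0 at an unadjusted p under 0.05 and a median of 0.20. Nln, neurolysin, which cleaves neurotensin, had 145, 189 and 140 on positive arrays and 142, 111 and 168 on negative arrays (0.17, SE 0.25). Its other probe set had 141, 127 and 119 on positive arrays, against 96.4, 63.5 and 78.1 on negative arrays, without overlap (0.72, SE 0.27, adjusted p = 0.399 by limma over all tested probe sets). Ece1 differed by 0.20 (SE 0.30) and Prep by 0.57 (SE 0.28). Of 43 other neuropeptide precursor genes 34 had a probe set and 14 were tested, and none of these passed, with 1 at an unadjusted p under 0.05 and a median of -0.07. Adcyap1, the precursor of the peptide PACAP, had 400, 537 and 409 on positive arrays, against 263, 576 and 272 on negative arrays (0.36, SE 0.29). Pnoc, the precursor of nociceptin, differed by -0.08 (SE 0.31) and Iapp, the precursor of amylin, by 0.56 (SE 0.42). The tested probe sets of Iapp, each fitted on its own, ranged from 0.42 to 1.22. The highest (SE 0.57, adjusted p = 0.503 by limma over all tested probe sets) came from a probe set whose groups did not overlap. Npff, the gene with the unadjusted p under 0.05, was lower in positive cells, where 5.08% of all tested genes had such a p. It was named after its values were seen and had 24.0, 14.2 and 15.9 on positive arrays, against 37.7, 32.1 and 37.1 on negative arrays, a difference of -1.02 (SE 0.45, adjusted p = 0.446).

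**Figure D4:**
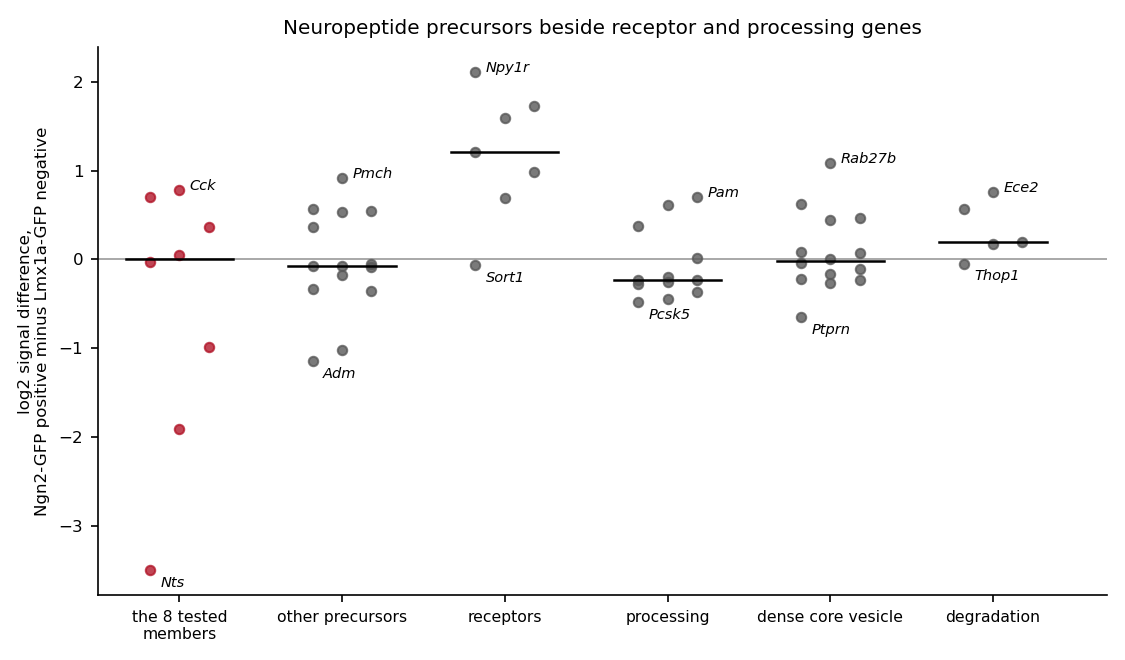
Log2 signal difference, Ngn2-GFP positive minus Lmx1a-GFP negative, of the 8 tested neuropeptide precursor genes (red) and of the tested genes of 5 lists (grey), with medians as black lines and the lowest and highest gene of each named. The precursor genes lie from -3.50 (Nts) to 0.78 (Cck), and the receptors lie from -0.06 to 2.11.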

How the data were processed

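Each sample is RNA of sorted cells on its own array, per the labels' protocols. The intensity values deposited by the authors are linear signals of 45101 probe sets. MAS5, limma and R 2.14.2 are named, with no role, in the submitters' processing notes. All arrays share a 2% trimmed mean of 100 in the deposited intensity values, which hides any difference in total RNA. The deposited values were used without detection calls. Of 45037 probe sets other than controls, the platform annotation gave 34945 a single symbol, 932 several and 9160 no listed gene. Entrez IDs of 34741 matched the GRCm38 gene table, which changed 0 symbols.

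A floor of 1 was applied to the signals before log2. Probe sets above the 40th percentile of the array on 3 or more arrays entered the test (27738 did), and for each of 12044 genes the one with the highest mean log2 signal was used. The test was two-sided, by limma 3.58.1 (lmFit and eBayes with trend) under R 4.3.3, and p-values were adjusted by Benjamini and Hochberg's method across the 12044 genes. The fit was tested on simulated data. Across all tested genes 128 passed, 51 higher and 77 lower in positive cells, and the correlation of log2 signals was 0.916 to 0.939 among positive arrays, 0.891 to 0.900 among negative arrays and 0.888 to 0.914 across groups. The precursor genes, the lists and the tests were chosen with earlier results of these data known. Named genes are all members, the 3 tested genes of each list with the highest mean log2 signal and any past the threshold, and the nearest genes in pattern, 5 for Nts and 3 for each other tested member, of which those of Nts, Sst, Npy and Cck are given. Alternatives were quantile normalization, array median centring, no filter, a 60th percentile filter, log2 of signal plus 32, no variance trend, other treatments of probe sets, the replicate number and the spike-in batch as blocks, and leaving out each array. Figures were drawn with matplotlib 3.10.9. Promoters are those of RefSeq.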

Additional observations from a re-analysis of the deposited data

How the results depend on the processing

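The differences of the members are descriptions, and alternatives that change only the variance, the filter or the choice among probe sets cannot move a gene with 1 probe set. For Nts the lowest and highest log2 differences without 1 array were -3.65 and -3.42, the value with 32 added to each signal was -2.0, and it was -3.24 with a block for the spike-in batch and on the higher spike-in arrays alone, which are the same contrast with positive replicate 3 as the lone positive array. Sst ranged from -1.16 to -0.79, Npy from -2.32 to -0.67, Cck from 0.28 to 0.95 and Penk from 0.37 to 0.94, with no change of sign where they gave a value, while Gal, Cartpt and Tac1 took both signs. Cck had no value when the probe set classes _a_at, _s_at and _x_at were dropped, and Cck, Npy, Gal and Tac1 had none with the filter at the 60th percentile. The number of members detected on every array was 2 in positive and 3 in negative cells at the 60th percentile and 1 in each at the 80th. Of all tested genes, 128 passed, against 19 with no filter, 42 with no variance trend, 34 with a block for the spike-in batch and 38 within the higher spike-in arrays, and 58 to 419 without 1 array. The count was 58 without positive replicate 2. The 419 were found without positive replicate 3, when the spike-in batch coincides with the group, and of these 116 were among the 128. In the dense core vesicle list 1 gene, Rab3a, passed when each probe set was tested on its own, and also in the mean of probe sets (-1.53, adjusted p = 0.0137), where the second probe set enters. Besides Rab3a, the genes Sort1, Dnajc5, Syt7 (from -0.11 to 0.29) and Ica1 (from -0.17 to 0.19) changed sign in the mean of probe sets. Marker sums without single genes were added after seeing the data. The other 4 lists had 0 genes past the threshold in all settings. The replicate numbers did not pair the arrays, with correlations of same-numbered deviations of 0.14, -0.10 and 0.03. With the replicate block 127 genes passed, the lists again had 0 and Nts was at -3.50. Signals near or under the 40th percentile of an array limit Nts and Npy in positive cells and Cck, Tac1, Gal and Pdyn throughout. The 3 arrays per group limit all values.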
